A study of Homo sapiens with 18 samples.

Results

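In A1847 cells labelled as CARM1 knockout, 113 genes were counted at a moderate level in every library, while the control and XBP1 knockdown cells had almost no reads from them. They were picked from the 57736 gene rows of the count table by raw counts: at least 100 in each of the 6 CARM1 knockout libraries and at most 3 in each of the other 12, with HOX genes left out (no HOX gene met the count rule). These counts chose the genes, so the contrast between knockout and control is described and not tested for them. The contrast of tunicamycin with vehicle within the knockout cells was not part of the rule and is tested. The rule does bound this response. It asks for 100 counts under both treatments, so genes silenced by tunicamycin or counted only with it are left out.

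A1847 is a high-grade serous ovarian cancer cell line. The control cells are labelled wild type for both CARM1 and XBP1, the CARM1 knockout cells carried a lentiviral CRISPR construct with a guide against CARM1 and had wild-type XBP1, and the XBP1 knockdown cells expressed a short hairpin RNA and were wild type for CARM1. Each genotype received vehicle or 5 μg/ml tunicamycin for 8 h, in 3 replicate libraries per group, and the 3′ ends of the mRNA were sequenced. The sources used here do not say whether the knockout culture was a clone or a selected pool. The study describes its experiments in general as biologically independent repeats, while the sample labels give replicate numbers alone, so the p-values measure the spread between these libraries. The cell lines were authenticated by short tandem repeat profiling according to the study, but whether the knockout culture itself was profiled is not stated, and that it is the same line as the control was not tested here. Loss of CARM1 and any other property of that culture, its identity included, cannot be told apart.

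CARM1 is an arginine methyltransferase that methylates histone H3 and transcriptional coactivators and is known mostly as an activator of transcription. Genes that belong to other tissues are usually silent in a cancer cell line, held off by the absence of their activators, by Polycomb repression or by DNA methylation of CpG-rich promoters. Tunicamycin blocks N-linked glycosylation, which loads the endoplasmic reticulum (ER) with unfolded proteins and sets off the IRE1α/XBP1s, ATF6 and PERK branches of the unfolded protein response.

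The knockout libraries stood apart from the other 12 well beyond these genes. On the log2 CPM scale (counts relative to library size, 1 added), the correlation across genes was 0.793 to 0.826 between a knockout library and any other library, against at least 0.979 among knockout libraries and at least 0.968 among the others. CARM1 itself had 625 to 946 counts in the knockout libraries and 1597 to 2680 elsewhere, with no overlap, although 3′ reads need not lie near the edited site and do not test whether protein was made. Of 15 epithelial, Müllerian and serous carcinoma markers, 9 had all knockout libraries above all others and 6 overlapped. PAX8, which belongs to the 113 genes, is among the 9 by the rule itself. KRT7 had 3576 to 5166 counts in knockout libraries and at most 13 elsewhere, KRT8 6208 to 9436 against 251 to 896, and EPCAM 157 to 266 against 22 to 52, whereas MUC16, which encodes CA125, was at 0 in every library, SOX17 and EMX2 had at most 1 count in any, and KRT19 was at 0 in the knockout libraries and reached 44 counts elsewhere. Among 10 fibroblast markers, COL1A2 (0 to 34 against 6840 to 12954), POSTN (0 to 44 against 7651 to 12803) and PDGFRA (0 to 15 against 2021 to 3140) ran the other way, and COL1A1 was higher in the knockout libraries (2205 to 6247 against 54 to 259). The 10 fibroblast markers summed to 171 to 463 CPM in knockout libraries and 1792 to 2338 CPM elsewhere. What part these differences have in the 113 genes was not tested.

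Totals ran from 9367462 to 13917212 counts per library, both extremes lying among the vehicle-treated knockout libraries. Tunicamycin acted in the knockout cells: HSPA5, the ER chaperone BiP, rose with a log2 fold change of 3.77 ± 0.03 (SE, n = 3 against 3, edgeR adjusted p = 2.34e-28), and DDIT3, the transcription factor CHOP, with one of 5.02 ± 0.06 (edgeR adjusted p = 2.15e-24). Of the targets of each branch, 24 of 25 XBP1s targets, 15 of 15 ATF6 targets and 22 of 24 PERK and ATF4 targets rose in these cells, and none of the 113 genes is on any of these lists.

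The 113 genes together contributed 29037 to 43483 counts to each knockout library, or 0.266% to 0.312% of its total. The other 12 libraries held 22 to 113 counts of them, 22 to 96 in the 6 control libraries and 28 to 113 in the 6 XBP1 knockdown libraries. In these bulk libraries, fewer cells that express a gene and less of its RNA per cell cannot be told apart. Mean counts over the 6 knockout libraries ran from 122 to 1314 per gene, with a median of 237. C2orf74, ZNF512, LINC00165 and ENSG00000261786 had 0 counts in all 12 other libraries. For these 4, a floor of 3 counts over the control group put the knockout level at least 202-fold, 167-fold, 150-fold and 121-fold higher with vehicle, in that order. A further 23 genes reached 1 count in some other library, 51 reached 2 and 35 reached 3. The genes closest to the limits were PDE6B and ENSG00000261786, each with a lowest knockout count of 100, and GBP3, with 101; just outside lay ZNF22-AS1 (98), GCA (97) and PLEKHA6 (97). SETBP1, MLPH and PDE6B sat at the upper limit of 3 counts in another library, and ZNF300, ZNF883 and EPB41L3 were left out at 4. The shallowest library, vehicle replicate 3, held the lowest knockout count of 77 of the 113 genes. Within the knockout groups the genes were even: the median coefficient of variation was 6.44% with vehicle and 6.51% with tunicamycin.

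**Figure D1:**
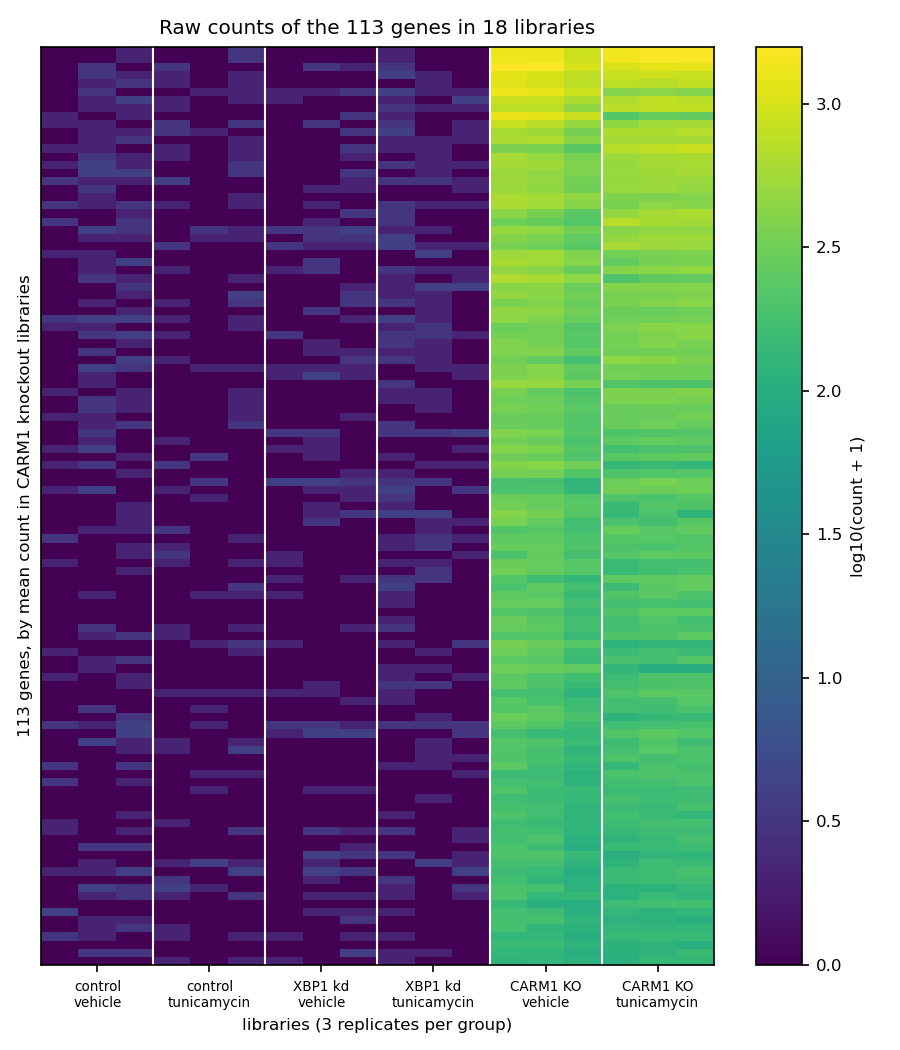
Raw counts of the 113 genes (rows, ordered by mean knockout count) in the 18 libraries (columns, 3 replicates per group), as log10(count + 1); kd, knockdown; KO, knockout. The 12 control and XBP1 knockdown libraries stay at 3 counts or fewer by the rule, and the 6 knockout libraries at 100 or more.

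By GENCODE biotype 96 of the genes are protein-coding, 12 are long non-coding RNAs (lncRNAs) and 3 are pseudogenes, while 2 identifiers (ENSG00000242284 and ENSG00000260833) were not matched in the annotation used here. They do not belong to a single tissue. The protein-coding genes were sorted by what their products are known to do, after their values had been seen, into 8 classes that take in 75 genes and a remainder of 21.

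Transcription factors and other nuclear proteins make up 13 genes. PAX8, the paired-box factor of the Müllerian tract, thyroid and kidney and a diagnostic marker of serous ovarian carcinoma, lies at chr2:113973574-114036498 on the minus strand (GRCh37). It had 840, 734 and 497 counts with vehicle and 465, 564 and 576 with tunicamycin, and at most 2 counts in any other library. Scaled for depth, the vehicle libraries were all above the tunicamycin libraries. The class also holds homeobox factors of different organs: MNX1 (motor neurons and pancreas), LHX2 (forebrain and hair follicle), GBX2 (the midbrain-hindbrain boundary) and CDX2 (intestine). The T-box factor TBX18, the forkhead factor FOXD1 and the polyglutamine protein ATXN1 were present too. CDX2, for example, had 167, 123 and 109 counts with vehicle and 150, 157 and 166 with tunicamycin.

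Innate immunity and white blood cell biology account for 14 genes. SRGN, which encodes serglycin, the proteoglycan core of secretory granules in blood cells, was the most abundant protein-coding gene of the set by CPM, with 1573, 1489 and 1006 counts with vehicle and 1004, 1151 and 1193 with tunicamycin. SERPINB1, an inhibitor of neutrophil proteases, had 351 to 700 counts. Other members were STING1 (the sensor of cyclic dinucleotides), GSDMD (the pore-forming protein of pyroptosis), the interferon-induced genes GBP3, SAMD9 and PARP12, the adhesion molecules ICAM1 and ICAM2, CYBA (a subunit of the phagocyte oxidase), DOCK2 (a Rac activator of leukocytes), IL1RL2 (a receptor for interleukin 36) and PTX3 (a soluble pattern recognition protein). Defining leukocyte genes did not accompany them: in the knockout libraries PTPRC (CD45) had 0 to 2 counts and CD3E and FCGR3A had 0, while CD68 had 60 to 89. The 7 leukocyte markers summed to 6.96 to 10.2 CPM in knockout libraries and 0.506 to 3.48 CPM in the others.

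Genes for receptors, channels and neuronal proteins number 14. GFRA1, the co-receptor for glial cell line-derived neurotrophic factor, was the most abundant, with 1177, 1004 and 779 counts with vehicle and 854, 887 and 852 with tunicamycin. GABRA5 encodes a subunit of the GABA type A receptor, KCNK1 a 2-pore potassium channel, TH the rate-limiting enzyme of catecholamine synthesis, and DNER, EPHB1 and FLRT2 proteins of neuronal contact and guidance. PTPRM, a receptor tyrosine phosphatase of cell contacts, had 357 to 622 counts. Of 7 neural markers, TUBB3 was higher in all knockout libraries than in all others (999 to 1815 counts against 47 to 117), NES (356 to 762 against 3375 to 9105) and SOX2 (1 to 4 against 33 to 65) were lower, and the other 4 overlapped, SOX10 and NEFM at 0 in every library. The neural markers summed to 106 to 200.3 CPM in knockout libraries and 314 to 671 CPM elsewhere.

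A group of 8 genes encodes matrix proteins and secreted signals: COL4A1 (a chain of basement membrane collagen), BGN, EFEMP1, CTHRC1, EGFLAM and AEBP1 in the matrix, and GREM1, an antagonist of bone morphogenetic proteins, and INHBB, the βB subunit of activin and inhibin, as signals. Metabolism is represented by 9 genes, among them MTLN (the mitochondrial micropeptide mitoregulin, 430 to 648 counts), PRKAA2 (the α2 catalytic subunit of AMP-activated kinase, 388 to 607), LPL (lipoprotein lipase, 323 to 471), G0S2 (an inhibitor of triglyceride lipase) and XDH (xanthine dehydrogenase). Trafficking, cytoskeleton and intracellular signalling take 11, including the dynein adaptor HOOK1, the endocytic adaptor DAB2 and GNGT2, a G protein γ subunit best known from cone photoreceptors, which had 630 to 872 counts.

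Melanosomes, the pigment granules, are served by 3 genes: GPR143 (the receptor mutated in ocular albinism, 214 to 308 counts), RAB38 (114 to 187) and MLPH (melanophilin, 328 to 491). MITF, the master regulator of melanocytes, had 130 to 210 counts in knockout libraries and 2 to 14 elsewhere. PMEL had 12 to 26 against 2 to 14, with overlap, but TYR was at 0 and MLANA and DCT at 0 to 1 in knockout libraries. A further 3 genes are best known from the germ line: YBX2, MEI1 and HENMT1. Outside these classes, GRAMD2B, a GRAM domain protein of unsettled function, had 1316, 1209 and 887 counts with vehicle, and TSPYL5, of a family named for a testis protein, had 461 to 794 counts.

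The most abundant rows of all were a pair of pseudogenes of the ribosomal protein gene RPL9. RPL9P8 and RPL9P9 carry identical counts in all 18 libraries, 1306, 1314 and 889 with vehicle and 1359, 1521 and 1497 with tunicamycin. As near copies of each other and of an expressed gene, they cannot be separated by these reads and are uncertain. MT1L, a metallothionein pseudogene with 717 to 1139 counts, is uncertain for the same reason, since it lies between functional family members. The 12 lncRNAs include LINP1, known from the repair of DNA double-strand breaks, FOXD3-AS1, AGAP2-AS1 and ELFN1-AS1.

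Tunicamycin lowered more of these genes than it raised. The limit of 100 raw counts was strictest for the shallowest library, vehicle replicate 3 (9367462 counts in total). What part this has in the shares that follow was not tested. In the knockout cells 21 of the 113 (18.6%) rose and 44 (38.9%) fell at a false discovery rate of 5% in edgeR's quasi-likelihood test with Benjamini-Hochberg adjustment, and 48 did not pass. Over all 17317 genes tested, 20.6% rose and 18.8% fell. Among the 8666 other genes with at least 100 counts in each knockout library, which have a higher median of mean counts (552 against 237), 29.3% rose and 27.7% fell. Among the 6623 of these whose mean count lay within the range of the 113 genes (median 404), 26.7% rose and 25.9% fell. The median log2 fold change was -0.16 (quartiles -0.44 and 0.13) for the 113 genes and 0 over all genes tested. With a change of at least 1.5-fold required as well, 7 rose and 20 fell, against 7.84% and 6.11% of all genes. The tunicamycin and vehicle libraries did not overlap in CPM for 77 of the 113 genes, against 48.2% of all genes tested. The latter include genes of low counts, and the share among other genes with at least 100 counts was not obtained. The difference is therefore not read as a trait of the set. When all 18 libraries shared one fit, 12 rose and 38 fell.

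**Figure D2:**
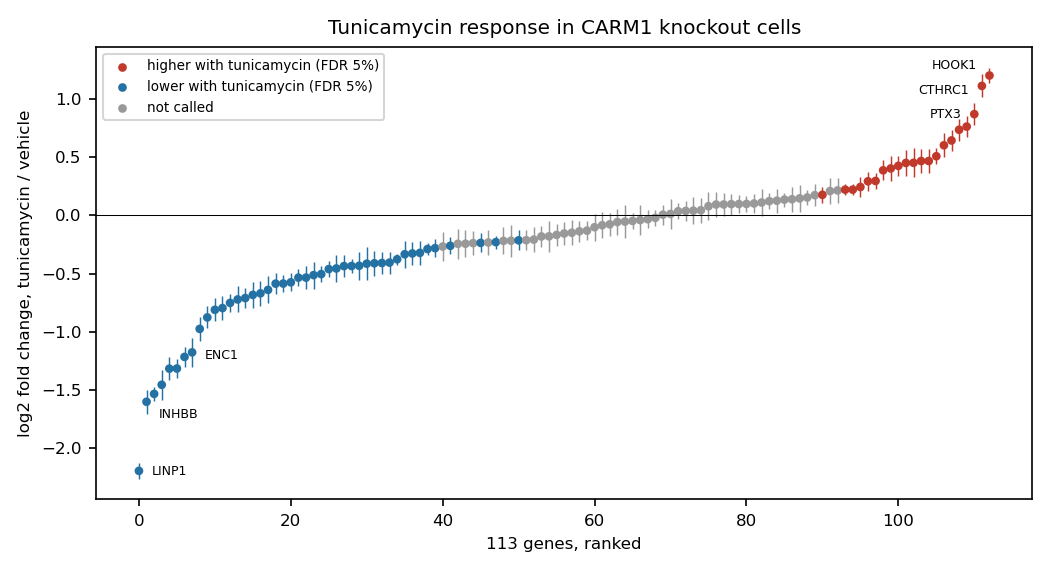
Log2 fold change of tunicamycin over vehicle in CARM1 knockout cells for each of the 113 genes, ranked; points are edgeR estimates and bars their SE (3 libraries against 3). The 44 genes that fell reach down to -2.19 (LINP1) and the 21 that rose reach up to 1.20 (HOOK1).

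The largest rise was that of HOOK1 (chr1:60280458-60341994, plus strand), whose product links cargo to the dynein motor. It had 363, 356 and 241 counts with vehicle and 718, 778 and 866 with tunicamycin. Scaled, that was 25.9 ± 0.854 CPM against 59.6 ± 3.86 CPM (SD, n = 3), a log2 fold change of 1.20 ± 0.07 (SE, edgeR adjusted p = 3.28e-12), with no overlap between the groups. CTHRC1 (chr8:104383766-104395217, plus strand), a secreted protein of wound repair, had 312, 277 and 224 counts with vehicle and 717, 592 and 570 with tunicamycin, a log2 fold change of 1.11 ± 0.10 (edgeR adjusted p = 6.22e-09). PTX3 (chr3:157154639-157161422, plus strand) had 187, 176 and 126 counts with vehicle and 289, 357 and 311 with tunicamycin, a log2 fold change of 0.87 ± 0.09 (edgeR adjusted p = 1.26e-07). In each of these genes every tunicamycin library lay above every vehicle library.

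The rises that followed in size were 1.69-fold or less. ZNF582-DT, a lncRNA that starts beside the zinc finger gene ZNF582, had 350, 307 and 241 counts with vehicle and 593, 530 and 506 with tunicamycin (log2 fold change 0.76 ± 0.09). ATXN1 had 189, 198 and 131 counts with vehicle and 316, 295 and 311 with tunicamycin (0.73 ± 0.10). For IL1RL2 the counts were 443, 348 and 236 with vehicle and 478, 591 and 641 with tunicamycin (0.64 ± 0.09). ELFN1-AS1 rose with a log2 fold change of 0.60 ± 0.10 and FLRT2 with one of 0.51 ± 0.07. All 5 had edgeR adjusted p-values below the 5% limit and groups that did not overlap in CPM.

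LINP1 fell most. This lncRNA (chr10:6751492-6782494, plus strand) had 1284, 1164 and 865 counts with vehicle and 220, 286 and 270 with tunicamycin. That was 89.7 ± 1.56 CPM against 19.5 ± 1.81 CPM (SD, n = 3), a log2 fold change of -2.19 ± 0.07 (SE, edgeR adjusted p = 3.89e-17) and a level 4.58-fold lower. GRAMD2B (chr5:125695824-125832186, plus strand) went from 92.4 ± 0.935 CPM to 31.9 ± 1.92 CPM, a log2 fold change of -1.53 ± 0.06 (edgeR adjusted p = 1.60e-15). Both were among the most abundant genes of the set before tunicamycin, and in both all vehicle libraries were far above all tunicamycin libraries.

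Of the secreted signals and matrix proteins, all 8 genes passed the test, 6 lower and 2 higher. For scale, here and for the classes and lists below, 20.6% of all 17317 genes tested rose and 18.8% fell. Among the other genes with at least 100 counts in each knockout library, 29.3% rose and 27.7% fell. The classes are small and were sorted after the values had been seen, so their counts are a description. INHBB (chr2:121103712-121109379, plus strand) had 386, 430 and 322 counts with vehicle and 135, 141 and 128 with tunicamycin, a log2 fold change of -1.60 ± 0.10 (edgeR adjusted p = 2.73e-11). COL4A1 (chr13:110801310-110959504, minus strand) had 654, 608 and 448 counts with vehicle and 206, 260 and 271 with tunicamycin, a log2 fold change of -1.32 ± 0.08 (edgeR adjusted p = 8.07e-12). GREM1 (chr15:33010205-33037307, plus strand) had 504, 486 and 347 counts with vehicle and 214, 200 and 202 with tunicamycin, a log2 fold change of -1.22 ± 0.08 (edgeR adjusted p = 8.63e-11). The groups did not overlap in any of the 3. AEBP1 (-0.88), EGFLAM (-0.68) and EFEMP1 (-0.67) also fell, while CTHRC1 and BGN (0.29) rose. Of the wider list of matrix proteins and matrix enzymes, 22 of 129 genes tested rose and 39 fell, with a median log2 fold change of -0.14; of the list of growth factor signalling genes, 16 of 185 rose and 71 fell.

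Among the 13 transcription factors and nuclear proteins, 7 fell, 2 rose and 4 did not pass. Over all genes tested, 18.8% fell and 20.6% rose. SERTAD4, a nuclear SERTA domain protein, had 311, 286 and 258 counts with vehicle and 131, 103 and 102 with tunicamycin (log2 fold change -1.46 ± 0.13, edgeR adjusted p = 3.95e-09). MNX1 had 348, 288 and 223 counts with vehicle and 114, 129 and 126 with tunicamycin (-1.32 ± 0.10, edgeR adjusted p = 3.85e-10). LHX2 (-0.98) and GBX2 (-0.72) fell as well, and PAX8 fell by less, from 55.6 ± 3.47 CPM to 40.4 ± 2.92 CPM (-0.46 ± 0.07, edgeR adjusted p = 7.17e-06). ATXN1 and ZHX2 (0.40) rose, and TBX18, ZNF512, FOXD1 and CDX2 had log2 fold changes from -0.16 to 0.14 without passing. Over a wider list of developmental transcription factors without HOX genes, 19 of 159 genes tested rose and 37 fell.

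**Figure D3:**
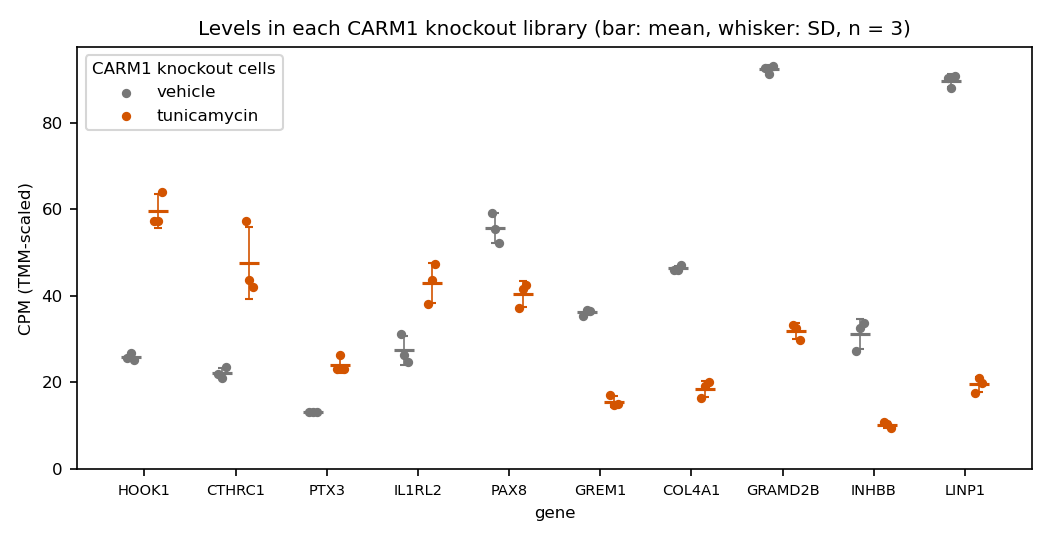
Levels of 10 of the genes in each CARM1 knockout library, in CPM scaled by TMM factors; points are libraries, bars the mean and whiskers the SD of 3. HOOK1 rose from 25.9 to 59.6 CPM and LINP1 fell from 89.7 to 19.5 CPM, with no overlap between vehicle and tunicamycin for any of the 10.

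The 14 immune genes were mixed, 3 higher, 5 lower and 6 not passing, where 20.6% of all genes tested rose and 18.8% fell. SRGN fell by 0.38 on the log2 scale (109.6 ± 3.55 against 84.4 ± 4.06 CPM, edgeR adjusted p = 1.17e-06), SAMD9 by 0.46, STING1 by 0.33 and ICAM1 by 0.28, while PTX3, IL1RL2 and SERPINB1 (0.29) rose. GSDMD (0.21 ± 0.11), PARP12 (-0.06 ± 0.11) and GBP3 (-0.10 ± 0.12) did not pass. The receptors, channels and neuronal proteins split 3 higher, 5 lower and 6 not passing. ANO4 (-0.64), DNER (-0.59), KCNK1 (-0.41) and GFRA1 (-0.29) were among those that fell, and FLRT2, PTPRN2 (0.42) and PTPRM (0.18) rose. The call of PTPRM, with an edgeR adjusted p of 0.0443, was lost without vehicle replicate 2 (0.166) or 3 (0.149), without tunicamycin replicate 2 (0.0952) or 3 (0.168), with a replicate block (0.0548), with DESeq2 size factors (0.0507) and with DESeq2 (0.120), and that of SERPINB1 was lost when all 18 libraries shared one fit (0.0685).

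Of the metabolic genes, G0S2 fell most (-0.80 ± 0.10, edgeR adjusted p = 1.17e-06), XDH, ENPP4 and LPL fell by 0.42, 0.41 and 0.26 on the log2 scale, ACOT4 rose (0.24), and the other 4 did not pass, MTLN and PRKAA2 among them with -0.05 ± 0.07 and 0.03 ± 0.07. In the trafficking and signalling class HOOK1 and PRR5L (0.45) rose and HSPB2, ABI3 and GNGT2 fell. RAB38 (-0.51) was the single melanosome gene that passed, and none of the 3 germ line genes did. Of the 12 lncRNAs 3 rose, 3 fell and 6 did not pass. ENC1, an actin-binding protein of the BTB-kelch family, had 395, 335 and 225 counts with vehicle and 136, 194 and 120 with tunicamycin (-1.18 ± 0.13, edgeR adjusted p = 9.09e-08). RPL9P8 and RPL9P9 (both 0.22) are counted separately among the 21 that rose although their counts are the same, and lost the call when all 18 libraries shared one fit (edgeR adjusted p = 0.0581).

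The 111 genes with a GRCh37 position lay on 22 autosomes and the X chromosome. Chromosome 2 held 14 of them (2.39 per 100 genes with at least 100 counts in each knockout library), and chromosomes 1, 5 and 6 held 9 each (1.02, 2.21 and 2.03 per 100). Within 500 kb of each other, start to start, lay 12 of the 111 (10.8%). The 12 include RPL9P9 and RPL9P8, whose identical counts cannot be separated by these reads. For scale, 5.66% of 8550 other genes with at least 100 counts in each knockout library had one of the 111 within 500 kb. Within 100 kb the shares were 5.41% (6 of 111) and 1.36%. ABI3, an adaptor of actin regulators, and GNGT2 start 163 bp apart on opposite strands of chromosome 17 and overlap in the annotation. Further pairs were ENSG00000270504 and FAM50B (98.3 kb, chromosome 6), GALNT14 and XDH (259.5 kb, chromosome 2), GBX2 and IQCA1 (339.1 kb, chromosome 2) and RPL9P9 and RPL9P8 (376.5 kb, chromosome 15). With tunicamycin ABI3 fell by 0.51 and GNGT2 by 0.23 on the log2 scale.

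The genes next door were often high in the knockout cells too. Taking the nearest tested gene on each side that is not itself one of the set gave 214 neighbours, of which 131 (61.2%) were higher and 45 (21.0%) lower in knockout than in control cells with vehicle, where 37.5% and 36.9% of all genes tested were higher and lower. Restricted to 107 neighbours within 100 kb, 63.6% were higher and 18.7% lower. This is the contrast that chose the genes, so the shares are a description. A log2 fold change of at least 3 was seen in 36 of the 107 (33.6%) and in 9.20% of all tested genes outside the set. At most 3 counts in each of the 12 other libraries were seen in 19 of the 107 (17.8%) and in 3.41% of tested genes outside the set. Tested genes had to pass the filter on low counts. Genes this low elsewhere therefore entered both shares only through their counts in knockout libraries.

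Several of these neighbours are partners of the gene beside them. COL4A2, which is transcribed away from COL4A1 from a shared promoter region, had 1017 to 1634 counts in knockout libraries and 0 to 8 elsewhere. The metallothioneins on both sides of MT1L, MT2A and MT1E, had 60993 to 101024 and 22553 to 34134 counts in knockout libraries and 60 to 380 and 1 to 112 elsewhere. SAMD9L, the paralog next to SAMD9, had 33 to 67 counts against 0 to 1. FOXD3, whose antisense RNA is in the set, had 45 to 89 counts against 0 to 3, and PLPP3, which starts beside PRKAA2, 90 to 461 against 0 to 3. LINC00707, the neighbour of LINP1, had 916 to 1646 counts against 0 to 4. Not all neighbours shared the pattern: HAUS7, which overlaps BGN, was lower in the knockout libraries (226 to 307 against 515 to 925). In all, 26 of the genes overlap another gene that had at least 10 counts in each knockout library, 21 of them on the opposite strand, and the strand setting of the counting is not given in the sources used here, so reads of such partners cannot be told apart.

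**Figure D4:**
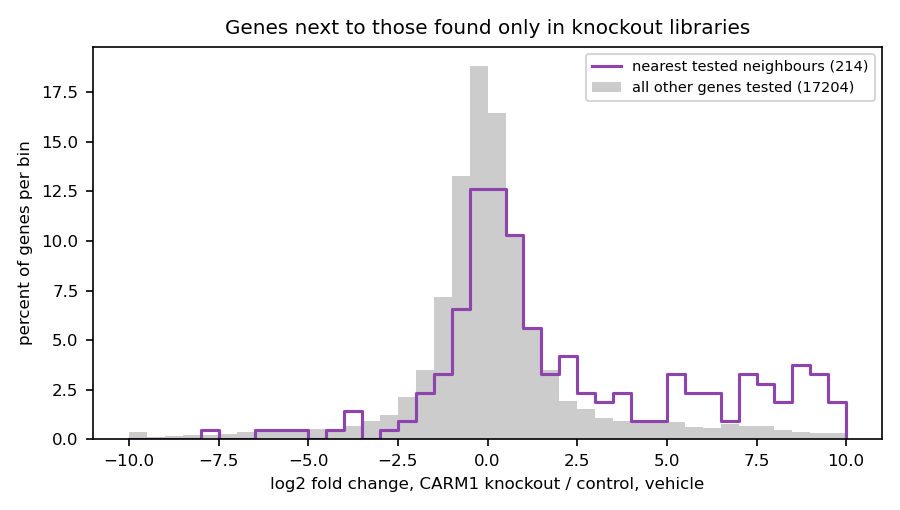
Log2 fold change of CARM1 knockout over control with vehicle for the 214 nearest tested neighbours (line) and for the other 17204 genes tested outside the set (bars), as percent of genes per bin of 0.5; values beyond ±10 are placed in the end bins. Of the neighbours 61.2% were called higher, and from 5 upward the line lies above the bars.

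A smaller share of the promoters of the set was CpG-rich than of the promoters of other genes counted in the knockout cells. In the 300 bases from 250 before to 50 after the start of the canonical transcript (the start of the gene where none is marked), 72 of 111 (64.9%) had a CpG observed over expected ratio of at least 0.6 and a GC content of at least 50%. The share was 88.1% of 8550 other genes with at least 100 counts in each knockout library, 87.5% of the 6524 of them within the range of mean counts of the set, and 30.3% of 55501 genes with a position. The median ratio was 0.728 in the set and 0.877, 0.868 and 0.342 in these comparison sets, and the median GC content was 66.3% in the set and in the other genes with at least 100 counts. Among protein-coding genes alone the shares were 68.8% of 96 and 90.6% of 8179. The share was 60.0% of the 20 genes with a position that rose with tunicamycin, 61.4% of the 44 that fell and 70.2% of the 47 that did not pass.

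**Figure D5:**
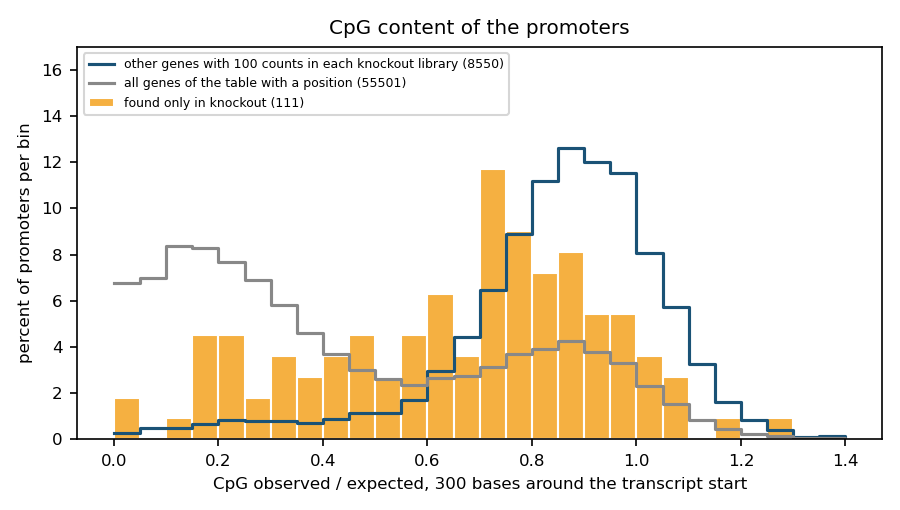
CpG observed over expected ratio in 300 bases around the transcript start, as percent of promoters per bin of 0.05, for the 111 genes (bars), other genes with at least 100 counts in each knockout library (dark line) and all genes with a position (grey line). The bars run from near 0 to 1.3 with a median of 0.728, to the left of the dark line.

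The full ER stress element, a CCAAT box and CCACG held 9 bases apart, was found on neither strand in any of the 111 promoters. It stood in 0.0577% of all 55501 and in 0.129% of the other genes with at least 100 counts. Its absence is not read as a trait of the set, since an element this rare would seldom be met in 111 promoters. Its shorter part CCACG was found in 49 (44.1%), against 51.5% of the other genes with at least 100 counts and 30.4% of all promoters, and CACGTG, which can share CACG with it, in 10 (9.01%), against 10.8% and 5.73%. CCACG stood in 9 of the 20 promoters of genes that rose and in 20 of the 44 of genes that fell.

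The promoters that follow show this range for genes that responded most to tunicamycin and for PAX8. They were read from the GRCh37 genome, 5′ to 3′ on the strand of the gene, with each CpG in capitals. The first pair belongs to genes that rose, HOOK1 (chr1:60280371-60280670, plus strand) with 37 CpG sites and PTX3 (chr3:157154389-157154688, plus strand) with 7:
HOOK1: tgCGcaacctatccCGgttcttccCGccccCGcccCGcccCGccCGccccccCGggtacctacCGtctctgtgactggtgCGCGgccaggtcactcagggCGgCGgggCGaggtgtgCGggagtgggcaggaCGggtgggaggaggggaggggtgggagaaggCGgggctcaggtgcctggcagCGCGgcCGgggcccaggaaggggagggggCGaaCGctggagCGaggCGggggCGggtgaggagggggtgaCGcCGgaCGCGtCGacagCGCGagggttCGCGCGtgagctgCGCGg
PTX3: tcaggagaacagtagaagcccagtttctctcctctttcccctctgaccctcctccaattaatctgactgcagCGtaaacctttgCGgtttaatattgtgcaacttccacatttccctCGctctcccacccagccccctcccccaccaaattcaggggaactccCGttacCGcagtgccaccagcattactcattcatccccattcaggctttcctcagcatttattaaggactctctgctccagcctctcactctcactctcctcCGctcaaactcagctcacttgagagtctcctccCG

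The next pair belongs to genes that fell, INHBB (chr2:121103462-121103761, plus strand) with 58 CpG sites and LINP1 (chr10:6751242-6751541, plus strand) with 7:
INHBB: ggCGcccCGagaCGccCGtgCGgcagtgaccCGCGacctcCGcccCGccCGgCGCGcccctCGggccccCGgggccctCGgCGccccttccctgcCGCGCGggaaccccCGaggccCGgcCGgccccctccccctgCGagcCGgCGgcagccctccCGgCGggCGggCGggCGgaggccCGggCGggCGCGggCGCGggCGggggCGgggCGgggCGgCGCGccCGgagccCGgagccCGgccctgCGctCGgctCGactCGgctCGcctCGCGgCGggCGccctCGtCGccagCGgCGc
LINP1: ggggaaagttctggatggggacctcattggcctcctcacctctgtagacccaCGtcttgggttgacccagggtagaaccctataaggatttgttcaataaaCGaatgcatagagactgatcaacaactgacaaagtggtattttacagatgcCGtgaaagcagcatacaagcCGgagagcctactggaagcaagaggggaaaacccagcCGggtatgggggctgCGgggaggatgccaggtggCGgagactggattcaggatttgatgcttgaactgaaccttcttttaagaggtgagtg

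Genes with a CpG-dense and a CpG-poor promoter thus stand in both directions of response. PAX8 (chr2:114036449-114036748, minus strand) had 13 CpG sites in the window and a ratio of 0.483:
PAX8: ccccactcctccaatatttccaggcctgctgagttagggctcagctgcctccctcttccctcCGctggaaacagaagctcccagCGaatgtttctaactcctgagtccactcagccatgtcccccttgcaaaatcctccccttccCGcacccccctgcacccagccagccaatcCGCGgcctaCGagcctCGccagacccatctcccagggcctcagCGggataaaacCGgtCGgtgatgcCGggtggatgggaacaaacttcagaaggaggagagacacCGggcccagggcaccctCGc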

How the data were processed

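mRNA of A1847 cells was measured in 18 libraries, 3 per genotype and treatment. The authors' 75 nt single reads of 3′ ends were mapped by bowtie2 on hg19, and RSEM gave the deposited expected counts for each Ensembl gene (1.2.3 in the submitters' processing notes). The values are whole numbers, not normalized; the Ensembl release and the strand setting are not given in the sources used here. Every count column was mapped to a sample by its label. Symbols, biotypes and GRCh37 positions came from GENCODE release 44 mapped to that build, for 55501 genes.

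Testing used edgeR 4.0.16 under R 4.3.3: filterByExpr (minimum count 10) over all libraries, TMM scaling and quasi-likelihood tests on the 6 libraries of the groups compared, with Benjamini-Hochberg adjustment over 17317 genes. The SE was obtained from the F statistic and the size of the log2 fold change. CPM of the knockout libraries used the TMM factors of that fit. DESeq2 1.42.0, other filters, a replicate block and leaving out replicates were alternatives. Counts of knockout replicates differed by more than counting error (chi-square per degree of freedom 1.84 to 3.05), so no replicates were merged. The edgeR script was tested on simulated data.

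The 113 genes, the gene lists and the tests were chosen with earlier results of these data known, and the role classes with their values in view. Genes named are the 15 of highest CPM, the 8 highest and 8 lowest log2 fold changes among those called, up to 4 per gene list, those with another within 500 kb, the 3 nearest to each threshold on both sides, CARM1 and tunicamycin checks; other genes, including all neighbours, were named after their values were seen. Gene lists built from symbol patterns also take in some unrelated or antisense symbols. Some genes and sequences are not reported here.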

Additional observations from a re-analysis of the deposited data

How the results depend on the processing

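The number of genes in the set follows its limits: 196 with at least 50 counts in each knockout library, 48 with at least 200, 4 with no count allowed in the other libraries and 242 with up to 10 allowed. Leaving out any of the 18 libraries gave 113 to 124. Within 100 kb of another lay 6 of the genes (5.41%, against 1.36% of other genes with at least 100 counts that had one so near).

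For tunicamycin, 12 genes of the set rose in one fit over all 18 libraries, and 7 rose and 20 fell when a change of at least 1.5-fold was required. With a replicate block 20 rose and 43 fell. Same-numbered vehicle and tunicamycin libraries did not deviate together (correlations 0.00137, 0.0175 and -0.00739). No shared replicate effect was seen, but this check cannot show whether the libraries were prepared as pairs. Leaving out a replicate gave 19 to 21 higher and 41 to 45 lower, with 59 to 64 of the 65 calls kept, and over all genes 3105 to 3279 higher and 2875 to 3018 lower. DESeq2 kept 59 of the 65 calls and the fit over 18 libraries 50, with no sign reversed among them. Without vehicle replicate 2, TSPYL5 passed (log2 fold change 0.18). The small values of MTLN and PRKAA2, which had not passed, changed sign: MTLN to 0.0039 without vehicle replicate 2 (-0.098 to 0.0039 over the replicates left out), and PRKAA2 to -0.0018 in the fit over 18 libraries and -0.016 without tunicamycin replicate 3 (-0.016 to 0.087). The cause was not tested. Leaving out neighbours that overlap a gene of the set, an alternative chosen after seeing the data, gave 60.8% higher and 21.7% lower. The bound on mean counts of the comparison genes was also chosen after seeing the data.

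Genes near 100 counts carry the largest counting error of the set. A gene at 0 to 3 counts in each of the other libraries was at or near the limit of detection there at this depth. That does not show that it is absent. Only 4 of the genes had no count in all 12 other libraries, and the sum over these libraries had a median of 6 and reached 18 (SETBP1).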
